A study of Saccharomyces cerevisiae with 12 samples.

Results

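The genes described here are 34 Saccharomyces cerevisiae genes for moving new proteins into the endoplasmic reticulum (ER), attaching N-glycans to them and folding them there. They were chosen by gene name from the annotation deposited with the data for their known functions, with earlier results of these data known. The annotation holds 6692 coding genes among 20619 features. They cover the translocation channel (SEC61, SSS1 and SBH1), its partners in post-translational translocation (SEC62, SEC63, SEC66 and SEC72), the signal recognition particle or SRP (SEC65, SRP14, SRP21, SRP54, SRP68 and SRP72) and the SRP receptor (YDR292C for its subunit Srp101p and YKL154W for Srp102p). They also cover the Hsp70 chaperones of the ER lumen with their partners (KAR2, LHS1, SIL1, SCJ1 and JEM1), disulfide bond formation (PDI1, MPD1, MPD2, EUG1 and ERO1), the oligosaccharyltransferase or OST (OST1, OST2, OST3, WBP1, SWP1 and STT3), calnexin (CNE1) and the regulators of the unfolded protein response (IRE1 and HAC1).

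RNA was sequenced from total lysates and cytoplasmic fractions of wild-type cells and of the mutant mex67-5 xpo1-1, with 3 libraries in each of the 4 groups. Mex67 and Xpo1 (also called Crm1) are export receptors that carry RNA and proteins out of the nucleus, and mex67-5 and xpo1-1 are temperature-sensitive alleles of their genes. All cells, wild type included, were spheroplasted with zymolyase in a buffer with DTT. They were then diluted in medium with sorbitol, which the study names without DTT, and held at a lower temperature. After that they were kept at 37 °C for 1 h, so no library shows unshifted cells. The labels give the strain BY4741 for all groups, and the study's strain list gives the mutant the deletions mex67::HIS3 and xpo1::TRP1 with the mutant alleles on plasmids. The genotypes listed for wild type and mutant differ in other markers as well. Effects of the alleles thus cannot be told apart from those of markers or strain background. DTT is a reducing agent that can unfold proteins in the ER, and heat unfolds proteins throughout the cell. Since every group had both, their part in the levels cannot be told apart from the rest. The cytoplasmic fraction was the supernatant of a low-speed spin after lysis in Ficoll. The mutant is a single strain that carries both alleles at once, so the loss of either receptor cannot be told apart. Each library was made from many cells, so fewer cells with an RNA and less of it per cell cannot be told apart. The study calls its samples biologically independent, while the labels number them without naming cultures, so p-values measure the spread between these libraries.

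Proteins bound for the ER carry a signal that either SRP recognizes during translation or the Sec62-Sec63 complex receives afterwards, and both routes end at the Sec61 channel. Inside, Kar2 (the yeast BiP) pulls and folds the chain, the OST adds N-glycans at asparagines, and Pdi1 with Ero1 makes disulfide bonds. When unfolded proteins build up, the membrane sensor Ire1 removes an intron from HAC1 mRNA, and the Hac1 protein then switches on KAR2, PDI1, ERO1 and other genes of this set. mRNAs for ER proteins are translated largely at the ER membrane, while those for SRP subunits are translated in the cytosol, where SRP works.

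The DNA sequences that bear on this regulation were read from the reference genome (build R64, which is sacCer3) and are shown because HAC1 splicing and Hac1 binding are the known regulation of several genes of this set. Across the HAC1 splice junctions, written 5′ to 3′ on the plus strand, the intron is in capitals.
HAC1 exon 1 to intron, chrVI:75825-75854: attggcgtaatccagCCGTGATTACGATGA
HAC1 intron to exon 2, chrVI:76077-76106: TGCTTGTACTGTCCGaagcgcagtcaggtt
The unfolded protein response element that Hac1 binds has the core CAGNGTG, with CAGCGTG in the KAR2 promoter. Both strands of the 400 bases before each start codon were searched, and the CAGNGTG matches, which include those to CAGCGTG, are in capitals in these windows on the strand of the gene.
KAR2, chrX:381156-381185, plus strand: gaggaactggaCAGCGTGtcgaaaaagttg
LHS1, chrXI:296320-296349, plus strand: ataatatcgaaCACGCTGttataaaagtga
OST2, chrXV:517077-517106, minus strand: aaccaattcatCACACTGgaaataacgagt
CAGCGTG was found at 2 of the 34 genes, KAR2 (position -160 from the start codon) and LHS1 (position -99, on the other strand), and at 1.82% of 6662 coding genes. CAGNGTG was found at 3 of 34, the third being OST2 (position -254, on the other strand), and at 8.05% of coding genes. A match is a description of letters and not of binding.

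Reads lay mostly on the strand opposite to the RNA, although the labels name a kit that keeps no strand. At 30 of the 34 genes a feature on the opposite strand covers at least 50% of the gene, and these features were used to read the mRNAs. Per base, they held more counts than the gene's own feature at 30 of 30 genes in wild-type totals (median log2 ratio 4.43) and at 29 of 30 in mutant totals (median 4.30), the exception being SRP14 at -0.65. The gene's own feature was used to read antisense signal. SEC62, SEC66, SEC72 and HAC1 have no feature that covers enough of them, and shorter features inside them are given instead. For 17 of the 30 genes the reading also covers part of another coding gene on the same strand. Levels are CPM, the counts of a feature scaled to a common total over all features and corrected with edgeR's trimmed mean of M values (TMM), and overlapping features hold the same reads. A change shared by all RNAs cannot be measured this way.

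Total counts ran from 24532091 to 37361004 per library. All comparisons come from 1 fit of edgeR's quasi-likelihood test to the 13145 features with a mean count above 40, and a gene is called higher or lower at a Benjamini-Hochberg adjusted p under 0.05. All 30 mRNA readings passed that filter, with at least 253 counts on average in every group. HIS3, which replaces MEX67 in the mutant's strain description, was read on its opposite-strand feature. It had 291 counts there in wild-type total replicate 1 and 8 to 38 in the other wild-type libraries. The mutant libraries had 9262 to 17809 there. Its own feature, which reads antisense signal, had 30 in wild-type total replicate 1, 1 to 4 in the other wild-type libraries and 1267 to 1924 in the mutant. What gave wild-type total replicate 1 its higher counts was not tested. The own features of snoRNAs, 18 of which were tested, hold antisense signal by the strand seen here, so they do not give snoRNA levels. Against total, their median log2 fold change was -0.54 in wild-type cytoplasm, with 7 called lower and 1 higher. In mutant cytoplasm it was -0.76, with 8 lower and 3 higher. Between strains it was 1.20 in total and 1.54 in cytoplasm. Mitochondrially encoded mRNAs were lower in the cytoplasm. Read from opposite-strand features, 7 of them had a median of -0.99 in wild type (4 called lower) and -1.84 in the mutant (6 called lower). The own features of 4 of these genes, which read antisense signal, had -1.51 and -2.43. The part of mitochondrial mRNAs in the values of mRNAs translated at the ER membrane was not tested.

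In wild type, KAR2, ERO1, SEC61, JEM1, LHS1, PDI1 and other mRNAs of this set made up a larger part of the cytoplasmic RNA than of the total, and those for 5 of the 6 SRP subunits a smaller part. Of the 30 mRNAs, 17 were higher in the cytoplasm and 7 lower, with a median log2 fold change of 0.45. Over all features 24.9% were called higher and 17.4% lower, with a median of 0.04. Over the 4718 coding genes read by strand 22.1% were higher and 23.1% lower, with a median of -0.06. All 17 that were higher were among the 24 mRNAs that do not encode SRP subunits (median 0.54), while 5 of the 6 SRP subunits were lower (median -0.60) and none was higher, also at an unadjusted p under 0.05 or by DESeq2. The 17 fell to 11 without wild-type total replicate 2, without wild-type cytoplasm replicate 3 or with no filter on the mean count, and the split of 17 to 7 became 19 to 6 with library totals in place of TMM factors.

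**Figure D1:**
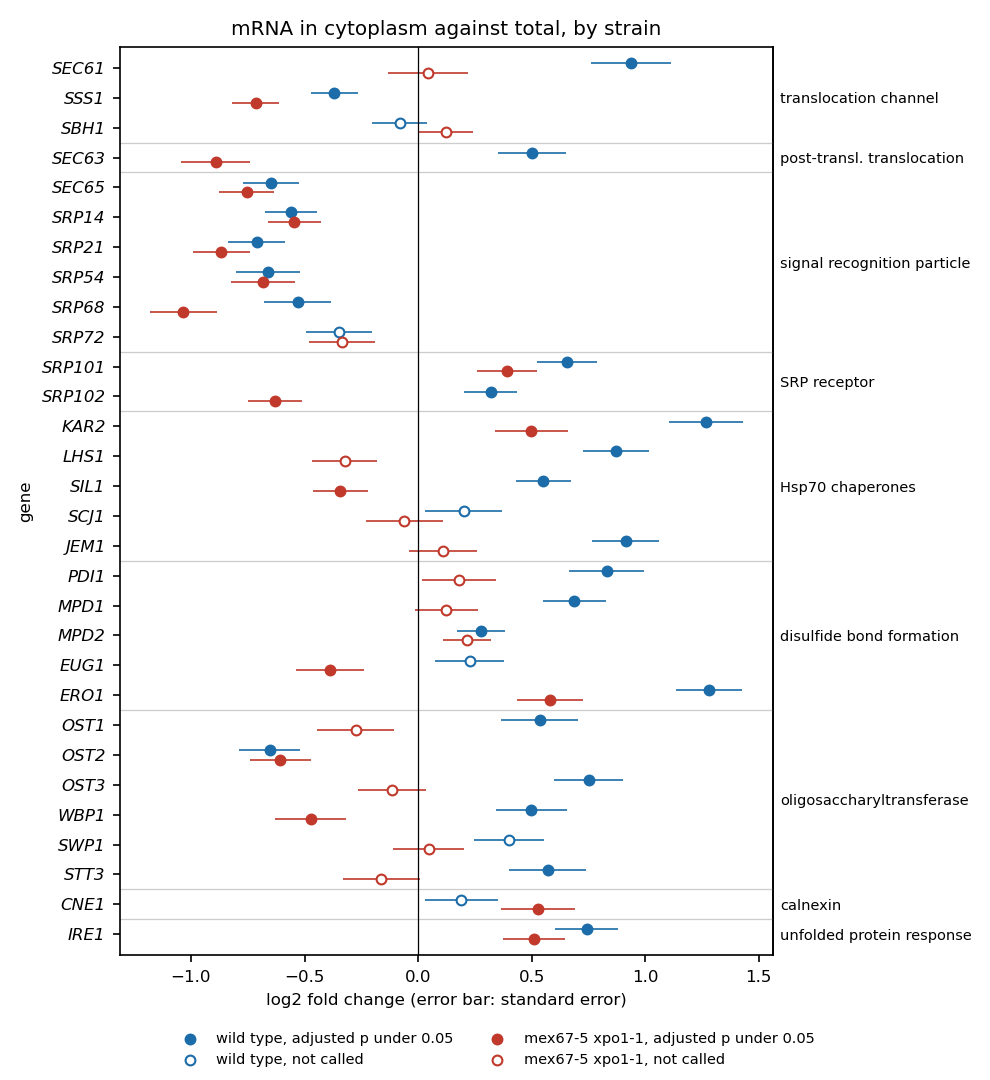
The horizontal axis gives the log2 fold change of the cytoplasm against total for 30 mRNAs, grouped by role (the SRP receptor genes YDR292C and YKL154W by their symbols), in wild type (blue) and mex67-5 xpo1-1 (red), with standard errors and filled points for an adjusted p under 0.05. The SRP subunits lie below 0 in both strains, while KAR2 and ERO1 reach 1.27 and 1.28 in wild type and 0.50 and 0.58 in the mutant.

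Of the channel subunits, SEC61 (chrXII:875332-877416, minus strand) encodes the pore itself. Its reading had 194, 162 and 169 CPM in the 3 wild-type total libraries and 398, 252 and 354 in the cytoplasmic ones. The groups did not overlap, and the log2 fold change was 0.94 (SE 0.18, adjusted p = 0.0013). SSS1, the small tail-anchored subunit, went the other way, with 182, 181 and 180.0 CPM in total and 141, 144 and 136 in the cytoplasm, a log2 fold change of -0.37 (SE 0.10, adjusted p = 0.012). Its reading is a longer transcript that also covers AFR1, and only 19.8% of it lies inside SSS1. SBH1, whose reading likewise lies mostly outside the gene, was not called (-0.08). SEC63 (chrXV:804823-807090, minus strand), the J-domain partner that brings Kar2 to the channel, had 194, 173 and 202 CPM in total and 305, 199 and 302 in the cytoplasm. These libraries overlap, and its call at a log2 fold change of 0.50 (SE 0.15, adjusted p = 0.017) was lost without wild-type total replicate 2 or wild-type cytoplasm replicate 1 or 3 (adjusted p between 0.0566 and 0.0764).

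The short features inside SEC62, SEC66 and SEC72, the other members of the post-translational complex, cover between 44.4 and 46.0% of them. SEC72 was lower in the wild-type cytoplasm, at a log2 fold change of -0.45 (SE 0.10, adjusted p = 0.0032), and SEC62 (-0.04) and SEC66 (-0.12) were not called. Its libraries read 31.4, 29.7 and 31.1 CPM in total against 23.7, 21.7 and 22.3 in the cytoplasm. Sec72 is a peripheral subunit on the cytosolic face of the membrane.

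SRP54 (chrXVI:711201-713093, minus strand), the GTPase that binds the signal sequence, had 87.2, 77.7 and 82.5 CPM in total and 53.8, 48.9 and 53.9 in the cytoplasm, a log2 fold change of -0.66 (SE 0.14, adjusted p = 0.0026). SRP21 (chrXI:212122-213070, minus strand) had 15.2, 13.3 and 14.3 CPM against 8.56, 8.80 and 8.80, a log2 fold change of -0.71 (SE 0.13, adjusted p = 0.00088). In both, every cytoplasmic library lay below every total library. SEC65 had 33.2, 30.2 and 27.6 CPM against 20.3, 19.9 and 17.9, SRP14 22.9, 19.4 and 18.8 against 13.3, 14.5 and 13.6, and SRP68 121, 105 and 107 against 87.6, 67.9 and 75.3. Their log2 fold changes of -0.65, -0.56 and -0.53 were all called, again without overlap. The reading of SRP14 is the feature of UBX3, of which 22.9% lies inside SRP14, and a shorter feature inside SRP14 gave -0.59. SRP72, which shares its reading with IPL1, was at -0.35 (SE 0.15, adjusted p = 0.069), and at an adjusted p of 0.019 in a fit with replicate numbers as pairs. The 2 subunits of the SRP receptor differed from the particle in direction. YDR292C, for the GTPase subunit Srp101p, was at 0.66 (SE 0.13, adjusted p = 0.0019), though 15.4% of its reading lies inside the gene and the rest covers parts of SSD1, DPL1 and HDA2. YKL154W, for the membrane subunit Srp102p (chrXI:161491-162583, plus strand), had 25.3, 22.4 and 20.1 CPM in total and 30.4, 25.6 and 28.7 in the cytoplasm, a log2 fold change of 0.32 (SE 0.12, adjusted p = 0.04). That call was lost without any 1 of 8 libraries (adjusted p between 0.0527 and 0.161), which are wild-type total replicates 2 and 3, wild-type cytoplasm replicates 1 and 3, mutant total replicates 1 and 3 and mutant cytoplasm replicates 1 and 2.

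Among the chaperones of the lumen, KAR2 (chrX:381273-383773, plus strand) had the largest change. It read 1229, 1146 and 1251 CPM in total and 2566, 2609.9 and 3560.1 in the cytoplasm, so that each cytoplasmic library was above each total library, 2.41-fold on the fitted scale (log2 fold change 1.27, SE 0.16, adjusted p = 0.00015). Its reading covers the whole gene and extends over HCA4, with 53.0% inside KAR2. LHS1 (chrXI:296363-299319, plus strand), an Hsp70-related exchange factor for Kar2, had 85.8, 79.5 and 92.9 CPM against 163, 129 and 180.0, a log2 fold change of 0.87 (SE 0.14, adjusted p = 0.0006). JEM1 (chrX:303041-305413, plus strand), a J-domain partner of Kar2, had 17.7, 15.6 and 18.1 CPM against 35.7, 24.9 and 36.3, a log2 fold change of 0.91 (SE 0.15, adjusted p = 0.00055). SIL1 (chrXV:265957-268017, minus strand), the other exchange factor, had 35.8, 35.2 and 36.8 CPM against 58.0, 44.1 and 56.0, a log2 fold change of 0.55 (SE 0.12, adjusted p = 0.0031). The readings of LHS1, JEM1 and SIL1 lie almost wholly inside these genes and touch no other coding gene on their strand. SCJ1, a further J protein whose reading also covers CEF1 and GAS3, had 227, 181 and 173 CPM against 273, 175 and 220.2 and was not called (0.20).

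ERO1 (chrXIII:11236-13288, minus strand), the oxidase that recharges Pdi1, had 111, 102 and 117 CPM in total and 229, 254 and 320.0 in the cytoplasm. The log2 fold change of 1.28 (SE 0.15, adjusted p = 7.2e-05), 2.43-fold, was the largest of the 30. PDI1 (chrIII:48422-50241, minus strand), the main disulfide isomerase, had 1194, 1158 and 1224 CPM against 2036, 1885 and 2436, a log2 fold change of 0.83 (SE 0.16, adjusted p = 0.0017), on a reading that also covers MGR1. In both genes every cytoplasmic library was above every total library. MPD1, a Pdi1 relative, was higher at 0.69 (SE 0.14, adjusted p = 0.0021). MPD2, another relative whose reading lies 29.6% inside the gene and extends over HAL9, was barely past the threshold at 0.28, and its call was lost without any library other than wild-type cytoplasm replicate 2 (adjusted p between 0.0566 and 0.133) and with replicate numbers as pairs (adjusted p = 0.058). EUG1 was not called on a reading it shares with GRH1 (0.23), while a feature inside EUG1 that covers 16.9% of it was higher at 0.98 (SE 0.17, adjusted p = 0.00077).

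In the OST, 4 of the 6 subunits were higher in the cytoplasm. STT3 (chrVII:452306-454784, plus strand), the catalytic subunit, had 533, 452 and 465 CPM in total and 847, 538 and 769 in the cytoplasm, a log2 fold change of 0.57 (SE 0.17, adjusted p = 0.017). OST3 (chrXV:481976-483392, plus strand), an oxidoreductase subunit, had 109, 97.5 and 103 CPM against 186, 148 and 188, a log2 fold change of 0.75 (SE 0.15, adjusted p = 0.0019). WBP1 (chrV:148350-150086, minus strand) had 155, 142 and 145 CPM against 218, 162 and 244, a log2 fold change of 0.50 (SE 0.16, adjusted p = 0.021). The readings of OST3 and STT3 are shared, with 30.4% inside OST3 and the rest over WHI5 and LPX1, and 54.9% inside STT3 and the rest over ALK1. In these 3 genes the libraries did not overlap, and wild-type cytoplasm replicate 2 was the lowest of its group each time. OST1 was at 0.54 (SE 0.17, adjusted p = 0.022) with overlapping libraries. SWP1 was not called (log2 fold change 0.40, SE 0.16, adjusted p = 0.053), but was at an adjusted p of 0.043 with replicate numbers as pairs. OST2, read from the feature of YOR102W, was lower at -0.65 (SE 0.13, adjusted p = 0.0022). The calls of STT3 (adjusted p between 0.0551 and 0.0616) and OST1 (between 0.0542 and 0.0969) were lost without wild-type total replicate 2 or 3 or wild-type cytoplasm replicate 1 or 3. That of WBP1 (between 0.0587 and 0.102) was lost without wild-type total replicate 2 or 3 or wild-type cytoplasm replicate 3.

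CNE1, the lectin chaperone calnexin, was not called in wild type (0.19), on a reading shared with ECM1, and a feature inside it was higher at 0.62 (SE 0.19, adjusted p = 0.019). Across the 30 genes, Spearman's correlation of annotated exon length with the wild-type log2 fold change was 0.61, given as a description, since the genes share libraries and several readings extend into neighbours. Leaving out each of the 12 libraries in turn, 18 of the 24 calls held every time.

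**Figure D2:**
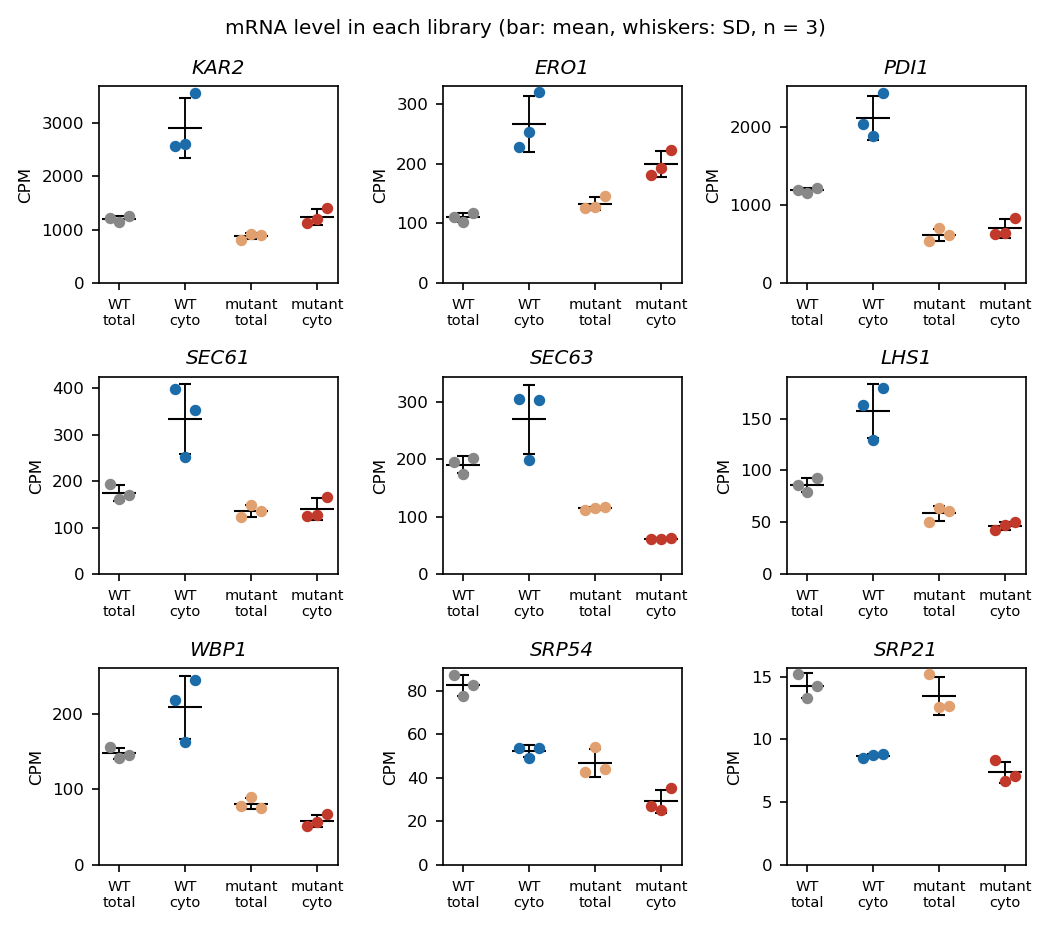
Each panel gives the level of 1 mRNA in CPM on a linear axis from 0, with a point for each library and the mean and SD of 3 libraries. The wild-type cytoplasm is the highest group for KAR2, ERO1, PDI1, SEC61, SEC63, LHS1 and WBP1, and the lower group of its strain for SRP54 and SRP21.

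In the mutant the shares of these mRNAs called higher or lower in the cytoplasm were near those of coding genes in general. Of the 30, 5 were higher in the cytoplasm (YDR292C, KAR2, ERO1, CNE1 and IRE1) and 12 lower, with a median log2 fold change of -0.22. Over all features 29.1% were higher and 28.4% lower, and over coding genes read by strand 20.2% were higher and 37.6% lower, with a median of -0.20. The 5 SRP subunits called in wild type were again lower (median of all 6, -0.72), and none of the 6 was higher at an unadjusted p under 0.05 or by DESeq2. The other 24 had a median of -0.01, with 5 higher and 7 lower. This comparison depended on scaling. With library totals the split of 5 higher to 12 lower turned to 14 to 3 and the median to 0.25, while the median of all 13145 features moved from -0.01 to 0.46. With TMM factors from mRNA readings alone it was 7 to 9.

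SRP68 (chrXVI:88397-90593, plus strand) was the most depleted, with 95.2, 82.0 and 79.6 CPM in mutant total and 44.9, 33.9 and 46.8 in mutant cytoplasm, a log2 fold change of -1.03 (SE 0.15, adjusted p = 0.00011). SRP21 had 15.2, 12.6 and 12.7 CPM against 8.34, 6.72 and 7.10 (log2 fold change -0.87, SE 0.12, adjusted p = 0.00012). SRP54 had 42.6, 54.3 and 44.0 CPM against 27.2, 25.3 and 35.3 (log2 fold change -0.68, SE 0.14, adjusted p = 0.0012). All cytoplasmic libraries were below all totals in each of these. SEC65 had 31.4, 32.2 and 30.2 CPM against 19.4, 15.8 and 20.5 (log2 fold change -0.75, SE 0.12, adjusted p = 0.00024), and SRP14 12.7, 13.3 and 11.8 against 8.26, 8.34 and 9.38 (log2 fold change -0.54, SE 0.12, adjusted p = 0.0015). SSS1 had 219.6, 223 and 203 CPM against 136, 128 and 130.0, a log2 fold change of -0.72 (SE 0.10, adjusted p = 0.00011). With library totals SRP14 moved to -0.07, SRP54 to -0.21, SEC65 to -0.28 and SSS1 to -0.24, none of which was called.

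SEC63 had 112, 114 and 116 CPM in mutant total and 60.3, 60.6 and 63.4 in mutant cytoplasm, so that its log2 fold change was -0.89 (SE 0.15, adjusted p = 0.00035) where it had been 0.50 in wild type. YKL154W had 18.2, 17.9 and 18.0 CPM against 12.6, 11.5 and 10.9 (log2 fold change -0.63, SE 0.12, adjusted p = 0.00063). Features inside SEC66 (-0.96) and SEC62 (-0.57) were also lower in the mutant cytoplasm. SEC61, the channel these proteins serve, had 122, 149 and 136 CPM against 126, 126 and 167, and the groups overlapped (0.04).

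KAR2 had 813, 919 and 909 CPM in mutant total and 1119, 1208 and 1402 in mutant cytoplasm, a log2 fold change of 0.50 (SE 0.16, adjusted p = 0.017), which was lost without mutant total replicate 1 (adjusted p 0.0617). ERO1 had 126, 127 and 146 CPM against 181, 193 and 223, a log2 fold change of 0.58 (SE 0.14, adjusted p = 0.004). PDI1, with 539, 701 and 616 CPM against 628, 639 and 839, had overlapping libraries and was not called (0.18). Of the Kar2 partners, SIL1 was lower (27.3, 31.3 and 30.7 CPM against 23.2, 22.2 and 25.1, log2 fold change -0.34, SE 0.12, adjusted p = 0.027). LHS1 (50.3, 64 and 61.0 CPM against 42.6, 47.3 and 50.2, -0.32) and JEM1 (13.5, 11.8 and 14.9 CPM against 15.3, 13.5 and 14.6, 0.11) were not called, and neither was SCJ1 (113, 127 and 123 CPM against 108, 104 and 135, -0.06). In the OST, WBP1 was lower (77.7, 90.0 and 75.9 CPM against 51.7, 56.6 and 67.1, log2 fold change -0.47, SE 0.16, adjusted p = 0.019), as was OST2 (-0.61). OST3 (61.5, 79.3 and 65.7 CPM against 60.6, 54.9 and 75.1, -0.12) and STT3 (289, 319 and 306 CPM against 249.5, 249 and 318, -0.16) were not called. Of the 17 calls, 11 held without every library in turn, and the exceptions beside KAR2 were SIL1, WBP1, EUG1, CNE1 and YDR292C. SIL1 (adjusted p between 0.0796 and 0.114) lost its call without mutant total replicate 2 or 3 or mutant cytoplasm replicate 1 or 2, and WBP1 (between 0.0712 and 0.108) without mutant total replicate 2 or mutant cytoplasm replicate 1 or 2. EUG1 (between 0.0532 and 0.192) lost it without any of 7 libraries, namely wild-type total replicate 2 or 3, wild-type cytoplasm replicate 3, mutant total replicate 2 or 3 and mutant cytoplasm replicate 1 or 2. CNE1 (0.0502) lost it without mutant cytoplasm replicate 3, and YDR292C (0.0828) without mutant total replicate 1. The number of higher mRNAs fell from 5 to 3 without mutant total replicate 1.

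The difference between the strains in the cytoplasm to total ratio was tested as an interaction in the same fit. The ratio was lower in the mutant for 11 of the 30 mRNAs and higher for none, with a median difference of -0.53. Over all features 4.57% had a higher ratio and 5.68% a lower one, and over coding genes read by strand 4.37% and 7.74%, with a median of -0.16. No mRNA had a higher ratio at an unadjusted p under 0.05 or by DESeq2, which called 14 lower. The 11 were SEC61, SEC63, YKL154W, KAR2, LHS1, SIL1, JEM1, ERO1, OST1, OST3 and WBP1. All of these had been higher in the wild-type cytoplasm, a comparison that uses the same wild-type libraries as the ratio. These results are thus not separate. The readings of KAR2, OST3 and WBP1 are shared with other coding genes. None of the 6 SRP subunits was called, although SRP68 had -0.50 at an unadjusted p under 0.05. Their median difference was -0.06, and that of the other 24 was -0.67. Among features inside the genes, that of EUG1 was called lower in ratio at -0.98, where its shared reading was not called. The features inside SEC62, SEC63, SEC66 and SEC72 had 2 called lower, SEC63 among them.

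SEC63 had the largest difference in ratio, at a log2 value of -1.39 (SE 0.21, adjusted p = 0.0027), followed by LHS1 at -1.19 (SE 0.20, adjusted p = 0.0046). WBP1 was at -0.97 (SE 0.22, adjusted p = 0.015), YKL154W at -0.95 (SE 0.17, adjusted p = 0.005), SIL1 at -0.89 (SE 0.17, adjusted p = 0.0074) and SEC61 at -0.89 (SE 0.25, adjusted p = 0.037). These encode parts of the translocation channel and the SRP receptor, a glycan transferase subunit and the exchange factors of Kar2. The calls of SEC63, LHS1, YKL154W and SIL1 held without each library in turn, and the number of calls ran from 4 to 14. It fell to 6 or fewer without wild-type total replicate 2 or 3, wild-type cytoplasm replicate 3, any mutant total library, or mutant cytoplasm replicate 1 or 2. KAR2 (adjusted p between 0.0642 and 0.156) and ERO1 (between 0.0629 and 0.151) were lost without any library other than wild-type cytoplasm replicates 1 and 2 and mutant cytoplasm replicate 3. SEC61 (between 0.0503 and 0.119) and OST1 (between 0.0689 and 0.155) were lost without any other than wild-type total replicate 1, wild-type cytoplasm replicate 2 and mutant cytoplasm replicate 3, and JEM1 (between 0.0507 and 0.087) without any other than wild-type cytoplasm replicate 2, mutant total replicate 2 and mutant cytoplasm replicate 3. OST3 (between 0.052 and 0.0804) was lost without wild-type total replicate 2 or 3, wild-type cytoplasm replicate 3, mutant total replicate 2 or mutant cytoplasm replicate 1 or 2, and WBP1 (between 0.0513 and 0.0597) without mutant cytoplasm replicate 1 or 2. With library totals 5 were called, and with replicate numbers as pairs KAR2 was not called (adjusted p = 0.051).

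In total RNA the mutant had less of many of these mRNAs relative to the other RNAs. Of the 30, 14 were lower than in wild type and none was higher, with a median log2 fold change of -0.35. Over all features 27.2% were higher and 22.9% lower, and over coding genes read by strand 18.4% were higher and 30.9% lower, with a median of -0.14. At an unadjusted p under 0.05 there was 1 higher mRNA, SSS1 (0.25), which was also the 1 that DESeq2 called. The split of 0 to 14 was 2 to 8 with library totals and 2 to 10 with TMM factors from mRNA readings, the higher ones being SSS1 and ERO1. The own features of snoRNAs given above, which read antisense signal, were higher in mutant total, 10 of 18 being called. Their part in this comparison was not tested.

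PDI1 fell the most in mutant total, from 1194, 1158 and 1224 CPM to 539, 701 and 616, a log2 fold change of -0.95 (SE 0.16, adjusted p = 0.00042). WBP1 went from 155, 142 and 145 CPM to 77.7, 90.0 and 75.9 (log2 fold change -0.86, SE 0.16, adjusted p = 0.00061). Neither gene's groups overlapped. SRP54 went from 87.2, 77.7 and 82.5 CPM to 42.6, 54.3 and 44.0 (log2 fold change -0.81, SE 0.14, adjusted p = 0.0004), and SRP14 from 22.9, 19.4 and 18.8 to 12.7, 13.3 and 11.8 (log2 fold change -0.69, SE 0.11, adjusted p = 0.0003). SEC63 went from 194, 173 and 202 CPM to 112, 114 and 116 (log2 fold change -0.74, SE 0.15, adjusted p = 0.0014). SCJ1 went from 227, 181 and 173 CPM to 113, 127 and 123 (log2 fold change -0.68, SE 0.17, adjusted p = 0.005), on its shared reading. No mutant total library reached the wild-type range in any of these. KAR2, at -0.46 (SE 0.16, adjusted p = 0.029), lost its call without wild-type total replicate 1 or 3 or mutant total replicate 1 or 3 (adjusted p between 0.056 and 0.0966). YKL154W (-0.33) lost its call without wild-type total replicate 1 or 2 or any mutant total library (adjusted p between 0.0627 and 0.146). SRP68 (-0.38) and OST2 (-0.34) lost theirs without any wild-type total library, wild-type cytoplasm replicate 3 or mutant total replicate 2 or 3 (adjusted p between 0.0596 and 0.15 and between 0.0506 and 0.162), and OST2 also without mutant total replicate 1. ERO1, at 0.27, was not called.

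**Figure D3:**
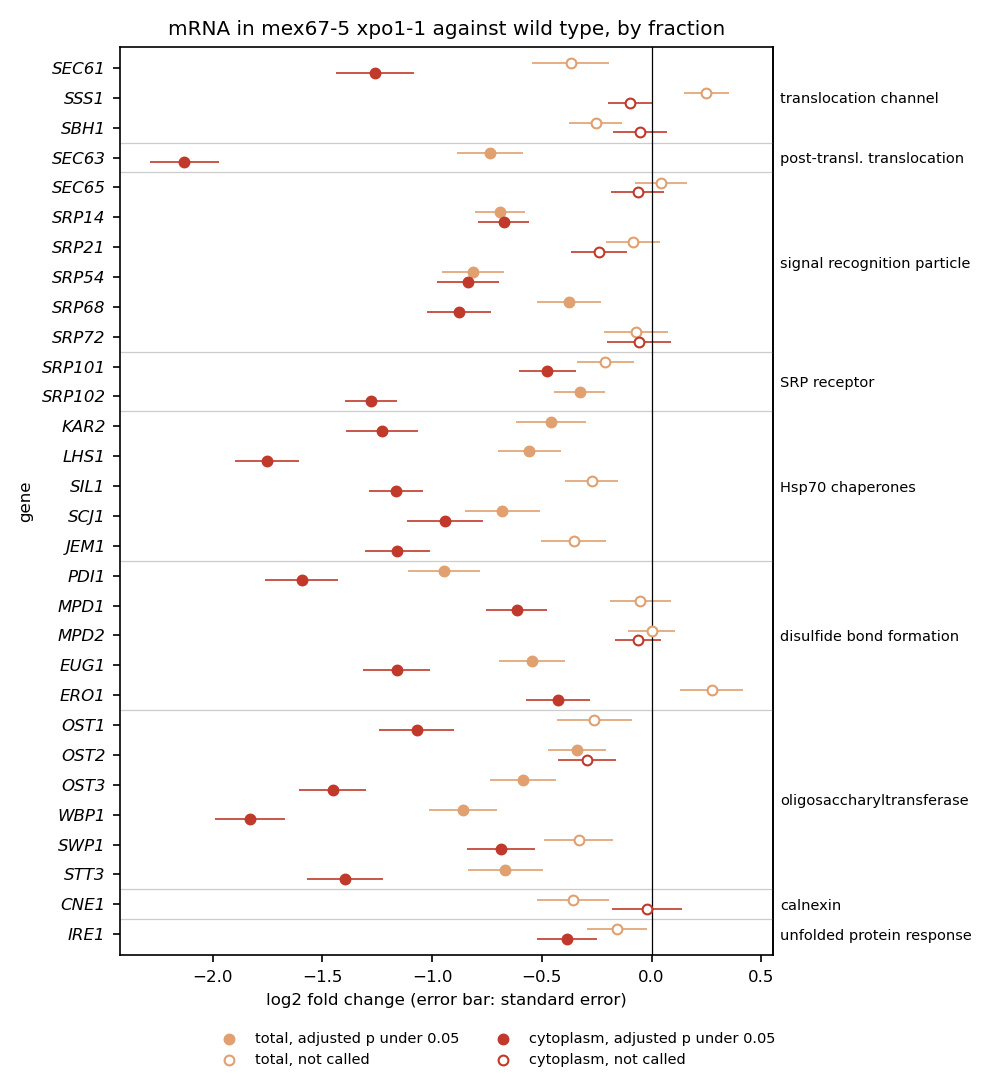
The horizontal axis gives the log2 fold change of mex67-5 xpo1-1 against wild type for 30 mRNAs, grouped by role (the SRP receptor genes YDR292C and YKL154W by their symbols), in total (orange) and in cytoplasm (red), with standard errors and filled points for an adjusted p under 0.05. The cytoplasmic value is the lower one for most ER proteins, down to -2.13 for SEC63, and close to the total value for SRP54, SRP14 and OST2.

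In the cytoplasm more of these mRNAs were lower in the mutant than in total. Among the 30 readings, that difference was itself called for the 11 named for the ratio. In the cytoplasm, 22 of the 30 mRNAs were lower in the mutant, with a median log2 fold change of -0.86. None was higher, also at an unadjusted p under 0.05 or by DESeq2. Over all features 32.7% were higher and 33.2% lower, and over coding genes read by strand 22.1% were higher and 45.0% lower, with a median of -0.26. By role, all 5 of the Kar2 group were lower, 5 of 6 OST subunits, 4 of 5 disulfide bond genes, both SRP receptor subunits and 3 of 6 SRP subunits. With library totals the split of 0 to 22 became 6 to 16 and the median -0.31, while the median of all features moved from -0.01 to 0.53. The 6 that were then higher were SSS1, SBH1, SEC65, SRP72, MPD2 and CNE1, which TMM scaling did not call.

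SEC63 was -2.13 on the log2 scale in mutant cytoplasm (SE 0.16, adjusted p = 1.8e-07), with libraries at 60.3, 60.6 and 63.4 CPM against 305, 199 and 302 in wild type. WBP1 had 51.7, 56.6 and 67.1 CPM against 218, 162 and 244, a log2 fold change of -1.83 (SE 0.16, adjusted p = 6.6e-07). LHS1 had 42.6, 47.3 and 50.2 CPM against 163, 129 and 180.0 (log2 fold change -1.75, SE 0.15, adjusted p = 4.9e-07). In each, the highest mutant library was below the lowest wild-type library by more than 2-fold. PDI1 had 628, 639 and 839 CPM against 2036, 1885 and 2436 (log2 fold change -1.59, SE 0.17, adjusted p = 2.9e-06). OST3 had 60.6, 54.9 and 75.1 CPM against 186, 148 and 188 (log2 fold change -1.45, SE 0.15, adjusted p = 3e-06), and STT3 249.5, 249 and 318 against 847, 538 and 769 (log2 fold change -1.40, SE 0.17, adjusted p = 1.2e-05). SEC61 (log2 fold change -1.26, SE 0.18, adjusted p = 3.5e-05) and KAR2 (log2 fold change -1.23, SE 0.16, adjusted p = 2.2e-05) were lower without overlap. ERO1 was the least changed of the called lumenal genes at -0.43 (SE 0.14, adjusted p = 0.018), and its call was lost without wild-type cytoplasm replicate 3 or mutant cytoplasm replicate 1 or 2 (adjusted p between 0.0787 and 0.123).

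Features inside the genes gave -1.15 for SEC62, -1.0 for SEC66 and 0.01 for SEC72 in mutant against wild-type cytoplasm, of which the first 2 were called. For EUG1 the feature inside the gene gave -1.94 where the shared reading gave -1.16, and both were called. YDR292C (-0.48) was lost without mutant cytoplasm replicate 1 (adjusted p 0.0563). Leaving out each library in turn, 19 of the 22 calls held every time, the exceptions being ERO1, IRE1 and YDR292C.

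IRE1 (chrVIII:257835-261871, minus strand), the sensor kinase and endonuclease, was read from a feature with 40.7% of its length inside the gene, shared with SAE3 and YHR080C. It had 174, 199.8 and 212 CPM in wild-type total, 314, 309 and 356 in wild-type cytoplasm, 148, 192 and 187 in mutant total and 233, 245 and 271 in mutant cytoplasm. The cytoplasm was above total in both strains, at 0.74 (SE 0.14, adjusted p = 0.0012) and 0.51 (SE 0.14, adjusted p = 0.0063). A feature inside IRE1 that covers 24.3% of it gave 0.92 in wild type and 0.14 in the mutant, the second not called, and its ratio was lower in the mutant (log2 fold change -0.78, SE 0.20, adjusted p = 0.026). Between strains in the cytoplasm, the shared reading was at -0.39, lost without 4 of the libraries (adjusted p between 0.054 and 0.146: wild-type cytoplasm replicate 3, mutant total replicate 3 and mutant cytoplasm replicates 1 and 2). The feature inside was at -1.35 (adjusted p = 3.3e-06).

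HAC1 (chrVI:75159-76730, plus strand) was read from 3 features on its opposite strand, of which none covers 50% of it. The first runs from position -357 to 485 from the start codon and lies over the start of the gene. The second runs from 535 to 986 and holds 200 exon bases and the whole intron of 252 bases. The third runs from 1036 to 1146, beyond the stop codon but inside the annotated transcript. The third had 88.9, 142 and 116 CPM in wild-type total, 114, 114 and 95.9 in wild-type cytoplasm, 84.6, 51.2 and 50.7 in mutant total and 35.9, 37.0 and 39.8 in mutant cytoplasm. HAC1 was lower in the mutant on all 3 features, by log2 fold changes of -0.89, -0.93 and -0.90 in total and -1.15, -1.27 and -1.52 in the cytoplasm, all called and without overlap. In wild type, no difference between cytoplasm and total was called on the 3 features (-0.36, -0.11 and -0.10). In the mutant the cytoplasm was lower on all 3 (-0.62, -0.45 and -0.73, adjusted p = 0.014, 0.047 and 0.0083). The libraries overlapped on the first and second features and not on the third. The difference in ratio was not called on any.

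The counts per base on the feature that holds the intron were compared with those on the third feature. The ratio was 1.27, 0.919 and 0.923 in the wild-type total libraries and 0.986, 0.977 and 1.07 in the wild-type cytoplasm. It was 0.814, 1.38 and 0.879 in mutant total and 1.29, 1.01 and 1.29 in mutant cytoplasm. The 4 groups overlapped. If reads fell evenly along the RNA, a pool without the intron would give 0.442 and a pool that keeps it would give 1, but coverage was uneven in this gene, with 0.788, 0.918 and 0.746 CPM per base on the first feature and 1.01, 1.18 and 0.964 on the second in wild-type total. Reads that cross the junctions shown above cannot be told apart in these counts, so the spliced share was not measured.

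**Figure D4:**
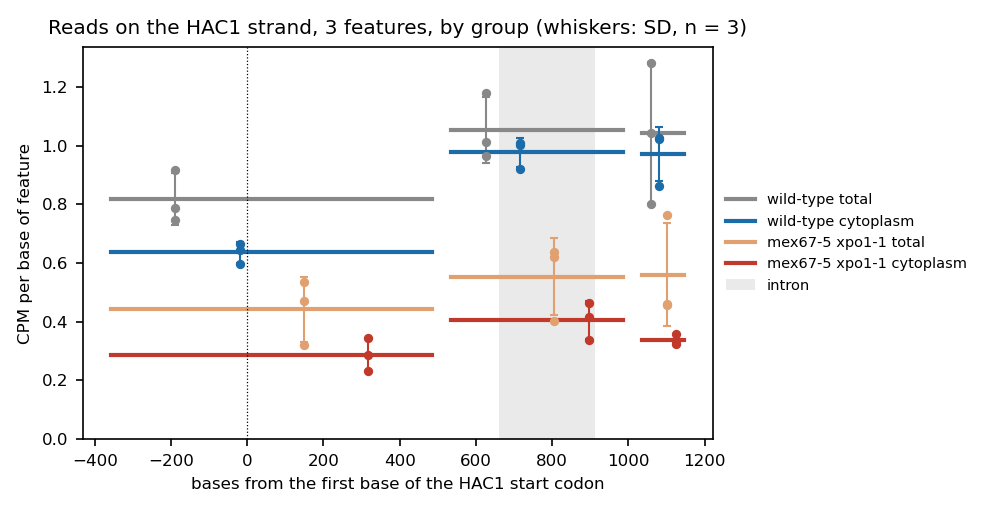
The horizontal axis gives the distance in bases from the first base of the HAC1 start codon and the vertical axis CPM per base of feature, with a line for each of 3 features and 4 groups, points for libraries and the SD of 3 as whiskers. Both mutant groups lie below both wild-type groups on every feature, while the feature that holds the intron (grey) is close to the third feature in each group.

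Antisense signal was read from the gene's own feature, which passed the filter at 24 of the 34 genes. At 21 genes another coding gene lies partly on the opposite strand, so that its RNA adds to this signal, and of the 13 without such a gene 4 were tested (SSS1, SCJ1, PDI1 and EUG1). The cytoplasm against total had more of it at 4 of the 24 and less at 5 in wild type, and more at 6 and less at 5 in the mutant. In the mutant against wild type it was higher at 8 and lower at 6 in total, and higher at 13 and lower at 6 in the cytoplasm. Over all features the shares higher and lower in these 4 comparisons were 24.9% and 17.4%, 29.1% and 28.4%, 27.2% and 22.9%, and 32.7% and 33.2%. The signals of SCJ1 and SEC61 passed the filter only through the mutant cytoplasm, where they were highest, so the counts for that group include differences that the filter itself selected. With library totals the 4 splits were 6 to 4, 14 to 1, 11 to 1 and 16 to 2, and with TMM factors from mRNA readings 5 to 4, 7 to 5, 11 to 2 and 14 to 3.

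SCJ1, with no coding gene on its opposite strand, had 13, 6 and 7 antisense counts in wild-type total, 19, 43 and 33 in wild-type cytoplasm, 44, 22 and 59 in mutant total and 184, 250 and 136 in mutant cytoplasm. It passed the filter only through the mutant cytoplasm, its mean over the other 9 libraries being 27.3 counts, so these values are a description and no test is given. In CPM it had 5.39, 6.31 and 4.08 in mutant cytoplasm and 0.821, 1.24 and 1.13 in wild-type cytoplasm. The SCJ1 mRNA reading was lower in the mutant cytoplasm (-0.94). SRP68 had 9.05, 6.99 and 5.07 antisense CPM in wild-type total, 11.1, 36.5 and 23.8 in wild-type cytoplasm, 21.0, 11.4 and 26.5 in mutant total and 119.8, 148 and 96.4 in mutant cytoplasm. Its mRNA had 44.9, 33.9 and 46.8 in that last group, and per kilobase the antisense signal was the larger there, at 55.3 ± 11.9 (SD, n = 3) against 22.7 ± 3.77. The antisense log2 fold change of cytoplasm against total was 1.76 (SE 0.39, adjusted p = 0.0034) in wild type and 2.63 (SE 0.39, adjusted p = 0.00013) in the mutant, and that between strains in the cytoplasm was 2.35. The mRNA of IQG1, which lies over 13.7% of SRP68 on the opposite strand, changed by 0.79 and 1.52 in those comparisons, and its part in the signal was not tested.

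ERO1 had 12.2, 16.5 and 12.9 antisense CPM in wild-type total and 81.3, 53.8 and 72.3 in mutant total, a log2 fold change of 2.32 (SE 0.23, adjusted p = 3.7e-06), with no overlap. In the cytoplasm it had 8.95, 16.8 and 15.4 CPM in wild type and 70.8, 62.4 and 55.5 in the mutant (log2 fold change 2.19, SE 0.22, adjusted p = 2.4e-06). YML131W, which lies over 20.1% of ERO1 on that strand, changed by 1.97 and 1.55, and its part was not tested. SEC63 went down instead, from 14.9, 15.3 and 14.2 antisense CPM in wild-type total to 5.39, 4.39 and 4.42 in mutant total (log2 fold change -1.65, SE 0.13, adjusted p = 6.1e-07). Its cytoplasmic libraries had 8.38, 9.55 and 8.66 CPM in wild type and 6.41, 7.73 and 6.74 in the mutant. Hence the cytoplasm was lower than total in wild type (-0.74) and higher in the mutant (0.56), a difference in ratio of 1.30 (SE 0.18, adjusted p = 0.0024). Of the 24 antisense signals it was the 1 whose difference in ratio was called higher, beside 4.57% of all features, against 3 at an unadjusted p under 0.05 and 2 by DESeq2, and the number ran up to 3 with a library left out (without wild-type cytoplasm replicate 2). None was called lower, beside 5.68% of all features, against 1 at an unadjusted p under 0.05 and 1 by DESeq2. NAT5 lies over 17.5% of SEC63 on that strand and changed by -1.91 in total and -1.60 in the cytoplasm, and its part was not tested. SRP72 had 21.1, 16.6 and 18.3 antisense CPM in wild-type total, 11.6, 10.0 and 11.2 in wild-type cytoplasm, 13.1, 9.59 and 12.7 in mutant total and 4.92, 2.78 and 6.18 in mutant cytoplasm, and was lower in the cytoplasm of both strains (-0.78 and -1.36).

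**Figure D5:**
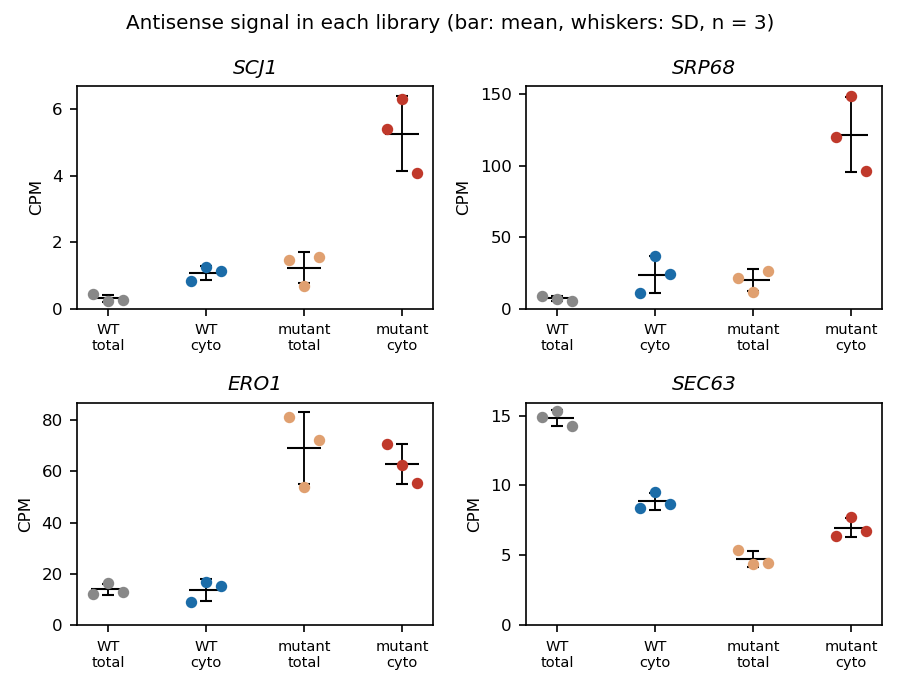
Each panel gives the antisense signal of 1 gene in CPM on a linear axis from 0, with a point for each library and the mean and SD of 3 libraries. SCJ1 (a description, since it passed the filter only through that group) and SRP68 are highest in mutant cytoplasm, ERO1 is higher in both mutant groups than in both wild-type groups, and SEC63 is highest in wild-type total.

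Lists of other genes of the same pathways were chosen by function, likewise with earlier results of these data known. Their genes were read the same way, and 59 of the 63 listed could be tested. In wild type 25 were higher in the cytoplasm and 9 lower (median 0.23), beside 22.1% and 23.1% of coding genes read by strand. In the mutant 9 were higher and 28 lower (median -0.31), beside 20.2% and 37.6% of coding genes. Mutant against wild type in total, 1 was higher and 37 lower (median -0.41), beside 18.4% and 30.9%. In the cytoplasm 3 were higher and 47 lower (median -0.82), beside 22.1% and 45.0%. The 6 protein O-mannosyltransferases, PMT1 to PMT6, were all lower in the mutant cytoplasm, with a median of -2.01. PMT3 had -2.84 (SE 0.19, adjusted p = 8.3e-08) and PMT1 -2.38 (SE 0.20, adjusted p = 4e-07), while YOS9, a lectin of ER-associated degradation, was higher at 1.13 (SE 0.22, adjusted p = 0.00058) and NPL4, a Cdc48 cofactor of the same pathway, at 0.59 (SE 0.12, adjusted p = 0.00072). In wild-type cytoplasm against total, ALG12 (1.05, SE 0.15, adjusted p = 0.0003) and PMT6 (0.91, SE 0.13, adjusted p = 0.00023) rose the most, and GET4 (-0.86, SE 0.12, adjusted p = 0.0002) and SPC1 (-0.72, SE 0.14, adjusted p = 0.0016) fell the most. Alg12 is a mannosyltransferase of N-glycan assembly, Get4 a cytosolic factor for tail-anchored proteins and Spc1 a signal peptidase subunit.

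In the mutant cytoplasm against total, YOS9 (0.95, SE 0.22, adjusted p = 0.0028) and CPR5 (0.84, SE 0.13, adjusted p = 0.00017), a lumenal cyclophilin, rose the most, and GET4 (-1.30, SE 0.12, adjusted p = 7.2e-06) and ALG13 (-1.07, SE 0.18, adjusted p = 0.00034) fell the most. In mutant total against wild type, CPR5 (-2.41, SE 0.13, adjusted p = 4.4e-08) and PMT1 (-1.41, SE 0.19, adjusted p = 5.7e-05) fell the most, and UFD1 (0.61, SE 0.12, adjusted p = 0.00088) was the only listed gene called higher. The ratio was lower in the mutant for 19 of the 59, beside 7.74% of coding genes read by strand, led by PMT3 (-1.73, SE 0.25, adjusted p = 0.0025) and ALG7 (-1.61, SE 0.25, adjusted p = 0.0027), the first enzyme of N-glycan assembly. It was higher for 1, beside 4.37%, which was SBH2 (0.56, SE 0.16, adjusted p = 0.044), the paralog of SBH1. SBH2 was read from the feature of ISC1, CPR5 from a feature shared with RSC3, and SPC1 from one shared with YJR011C.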

How the data were processed

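RNA from total lysates and cytoplasmic fractions of wild-type and mex67-5 xpo1-1 cells was sequenced by the authors as 50-base single reads, with 3 libraries in each of 4 groups. Per the submitters' processing notes and the study's methods, the authors used bcl2fastq 2.17.1.14, STAR 2.5.2a and featureCounts 1.5.0-p1 with sacCer3, and deposited whole-number counts per feature of an annotation of coding, noncoding and antisense features. Features overlap, so 1 read can be in more than 1 count. Total counts ran from 24532091 to 37361004, and intervals from such counts would cover counting error only.

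Members and lists were chosen with earlier results of these data known. Each mRNA was read from an opposite-strand feature that covers at least 50% of the gene. Among several, the one with the largest share of its own length inside the gene was taken, then the one with the largest cover. Antisense signal was read from the gene's own feature. A stricter reading required that at least 80% of the feature lie inside the gene and that it touch no other coding gene on its strand. An inner reading, added after the data were seen, took the widest-covering feature that met the same conditions, whatever share of the gene it covers. The counts were fitted with edgeR 4.0.16 (R 4.3.3) by its quasi-likelihood test, with TMM factors, 1 coefficient per group, all 12 libraries and the 13145 features with a mean count above 40. P-values were adjusted by Benjamini-Hochberg over all of them and called under 0.05. CPM were computed from the deposited counts and the TMM-scaled totals. In simulated counts for these 13145 features, 200 were changed by 1.5 on the log2 scale and the others were not. Of the 200, 98% were recovered in wild-type cytoplasm against total (3.45% of calls false) and 85% in the difference in ratio (6.59% false). The largest changes of the mRNAs in these comparisons were 1.28 and -1.39, so these rates do not give the recovery of the smaller changes reported. Alternatives were library totals, TMM from mRNA features, no filter, only the libraries compared, replicate numbers as a block, each library left out, DESeq2 1.42.0, and both other readings. Tables were made with Python 3.11.15 and pandas 2.3.3.

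Values of every library are given for KAR2, HAC1, IRE1 and SEC61 and, per comparison, for up to 6 mRNAs and 3 antisense signals with the largest called change and no overlap between groups (for the difference in ratio, the largest called change). Genes of the other lists are named only as the 2 with the largest increase and the 2 with the largest decrease. Between wild-type total and cytoplasmic libraries of the same replicate number, deviations from the group means correlated at 0.25, 0.39 and 0.12. The values were 0.38, -0.35 and -0.19 for the mutant fractions, and 0.03 to 0.06 in total and 0.09 to 0.27 in cytoplasm between the strains. Libraries of different numbers were not compared, so these values do not show whether the numbers mark pairs. The main fit did not use them. No pair of libraries was a duplicate. Gene coordinates are the exon ends in the deposited annotation, which include untranslated regions, and sequences are from RefSeq R64. The ends of the coding regions in the annotation matched the RefSeq gene ends within 3 bases at all 34 genes.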

Additional observations from a re-analysis of the deposited data

Results flagged for a closer look

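The cytoplasm to total ratio differed between the strains for 11 of the 30 mRNA readings and 1 of the 24 antisense signals. The test was the interaction term of edgeR's quasi-likelihood test with Benjamini-Hochberg adjustment. Among translocation genes the difference, mutant minus wild type on the log2 scale, was -0.89 for SEC61, -1.39 for SEC63 and -0.95 for YKL154W (the SRP receptor subunit Srp102p). Among the chaperones it was -0.77 for KAR2, -1.19 for LHS1, -0.89 for SIL1 and -0.80 for JEM1, and for the oxidase ERO1 it was -0.70. Among OST subunits it was -0.81 for OST1, -0.87 for OST3 and -0.97 for WBP1. The antisense signal of SEC63 differed the other way, by 1.30, and its mRNA had the most negative value.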

How the results depend on the processing

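With library totals in place of TMM factors the median over all features moved to as much as 0.53 on the log2 scale, and 13 of the 14 turns in direction of single mRNAs, and all 3 of antisense signals, came with that setting. Its median log2 fold changes of the 30 mRNAs were 0.61 (cytoplasm against total in wild type), 0.25 (in the mutant, a turn in direction), -0.10 (mutant against wild type in total), -0.31 (in cytoplasm) and -0.23 (difference in ratio). In the mutant cytoplasm against total 14 mRNAs were then higher and 3 lower, and 14 antisense signals higher and 1 lower, with SIL1 at 0.13, SCJ1 at 0.40, EUG1 at 0.082 and OST3 at 0.35. Mutant against wild type in total, 2 mRNAs were higher and 8 lower, and 1 antisense signal was lower. In the cytoplasm 6 mRNAs were higher and 2 antisense signals lower, and these turned upward: SSS1 (0.45), SBH1 (0.50), SEC65 (0.48), SRP72 (0.49), YDR292C (0.072), MPD2 (0.49), ERO1 (0.12), CNE1 (0.52), IRE1 (0.16) and the antisense signals of SEC63 (0.20), SEC66 (0.38) and SWP1 (0.091). The ratio was lower for 5 mRNAs and higher for 2 antisense signals. With TMM factors from mRNA features the medians were -0.053 (mutant fractions), -0.17 (strains, total) and -0.61 (strains, cytoplasm), 2 mRNAs were higher in mutant total, and 2 antisense signals were lower in total and 3 in cytoplasm. The stricter reading, available for 12 genes, gave medians of -0.47 (mutant fractions), -1.11 (strains, cytoplasm) and -0.81 (difference in ratio). It had 8 higher and 4 lower in wild-type cytoplasm, 1 higher and 7 lower in mutant cytoplasm, 6 lower in mutant total and 10 in mutant cytoplasm against wild type, since fewer genes were read. The inner reading, chosen after seeing the data and available for 21, gave medians of -0.57 (mutant fractions) and -1.07 (strains, cytoplasm), 11 higher in wild-type and 2 in mutant cytoplasm, and EUG1 at 0.0072 in the mutant fractions. Without the filter 11 mRNAs and 7 antisense signals were higher in wild-type cytoplasm, 1 mRNA in mutant cytoplasm, and the ratio was lower for 7 mRNAs and 1 antisense signal. DESeq2 called 1 mRNA higher in mutant total, and the ratio of 2 antisense signals higher and of 1 lower. Leaving out each library, higher mRNAs numbered 11 to 18 in wild-type and 3 to 5 in mutant cytoplasm, mRNAs with a lower ratio 4 to 14, antisense signals lower in wild-type cytoplasm 4 to 8, antisense signals lower in mutant total 3 to 7, and antisense signals with a higher ratio 1 to 3 and a lower ratio 0 to 1. Beside the shared scaling, the cause of these moves was not tested. With the replicate block 17 mRNAs were higher and 8 lower in wild-type cytoplasm, and 10 had a lower ratio. It added calls for SRP72 and SWP1 and ended that of MPD2 in wild type. In the mutant fractions it added SRP72 (adjusted p = 0.016) and LHS1 (0.029). In mutant total against wild type it added JEM1, CNE1 and the antisense signals of SRP14 and WBP1. Between strains the block joined libraries by number alone, and no label ties these numbers across strains. The block ended the call of KAR2 in the ratio and changed no other call. Depth did not limit the mRNA readings, the lowest group mean being 253 counts, while antisense signals of SEC61, SCJ1, SBH1, EUG1 and HAC1 had a group mean under 40.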
